A study of Mus musculus with 9 samples.

Results

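The unfolded protein and ATF4 stress response was followed across 38 genes under 3 kinds of flow. The cells were bEnd.3, an endothelial line from mouse brain that polyoma middle T antigen keeps dividing. The genes were taken by symbol from a table of 31232 genes: 3 sensors of the endoplasmic reticulum (ER), 6 transcription factors, 14 ER chaperones and folding enzymes, 4 genes of ER-associated degradation and 11 targets of ATF4 and CHOP. Each had 1 row in the table, and all 38 had enough counts to be tested. Cells grew on glass coverslips in a parallel-plate chamber, and each group has 3 libraries of polyadenylated RNA. The Vortex group was under a vortex of 0.5 to 2 dyne/cm2, the HSS group under 20 dyne/cm2 and the PSS group under 10 dyne/cm2, both laminar. The submitters set Vortex as a model of the late, enlarged intracranial aneurysm, HSS as one of its early stage and PSS as normal shear in brain vessels. All groups are this 1 immortalised line, and the labels give no time under flow.

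Misfolded proteins in the ER are sensed by IRE1 (Ern1), PERK (Eif2ak3) and ATF6. IRE1 splices the Xbp1 transcript and ATF6 is cut to a free factor, and both then drive genes of ER chaperones, folding enzymes and degradation. PERK phosphorylates the translation factor eIF2 alpha, which lowers overall protein synthesis but favours translation of ATF4, an activator of amino acid supply genes and of CHOP (Ddit3). Other eIF2 alpha kinases, which sense amino acid shortage, haem deficiency or viral RNA, lead to the same ATF4 genes without ER stress. Counts per gene do not measure Xbp1 splicing, ATF6 cleavage or eIF2 alpha phosphorylation.

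Total counts per library lay between 17407217 and 22965802. The libraries of a group correlated at 0.992 to 0.993 in HSS, 0.977 to 0.992 in PSS and 0.852 to 0.962 in Vortex (Pearson's r of log2 CPM across genes). Vortex replicate 2 stood apart in GC content: its genes of lowest GC content had a median of -1.41 log2 relative to PSS and those of highest GC content 0.90, against -0.45 and 0.27 in Vortex replicate 3. Summed CPM of 8 endothelial markers lay between 718 and 6160 in Vortex libraries, between 352 and 359 in HSS libraries and between 2090 and 2670 in PSS libraries. The highest sum was that of Vortex replicate 2 and the lowest Vortex sum that of replicate 1, so Vortex replicate 2 stood apart in these markers as well. Pecam1, an endothelial adhesion gene, had 1.77, 1460 and 55.1 CPM in Vortex replicates 1, 2 and 3, 1.08 to 1.68 CPM in HSS and 12.4 to 14.2 CPM in PSS libraries. Cldn5, a tight junction gene of brain endothelium, had 0.82, 371 and 3.06 CPM in the Vortex libraries, was at 0 counts in HSS replicates 2 and 3 and had 52.6 to 58.7 CPM in PSS libraries. The sums for 6 fibroblast and pericyte markers were 60.8 to 655 CPM in Vortex, 351 to 368 CPM in HSS and 288 to 362 CPM in PSS libraries. For 6 macrophage and leukocyte markers they were 22.1 to 56.0 CPM in Vortex, 22.1 to 25.4 CPM in HSS and 6.82 to 7.72 CPM in PSS libraries, mostly Cd68 and Csf1r, with the leukocyte gene Ptprc at 0.0526 CPM or less. The sums for 4 smooth muscle markers stayed within 1.09 to 2.19 CPM in all 9 libraries. The part of these differences in the results below was not tested, and in bulk RNA fewer cells that express a gene and less RNA per cell cannot be told apart. Counts of genes called in Vortex comparisons are given by list with and without Vortex replicate 2. Fold changes of single genes are from all 9 libraries unless another set is named.

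Under Vortex flow 7 of 11 ATF4 and CHOP targets rose over PSS, and 13 of 14 ER chaperones did not pass the test. In all, 13 of the 38 genes rose and 0 fell, where 8.33% of all tested genes rose and 5.03% fell (edgeR's quasi-likelihood test, Benjamini-Hochberg adjusted p under 0.05 over 15774 genes). The 13 were Atf4, Atf5, Hyou1, Herpud1, Edem1, Syvn1, Ppp1r15a, Trib3, Chac1, Sesn2, Asns, Mthfd2 and Slc3a2. By role they were 7 of 11 targets, 1 of 14 chaperones, 3 of 4 degradation genes, 2 of 6 transcription factors and 0 of 3 sensors. The 1 of 14 chaperones was close to the share of all genes that rose. The median log2 fold change was 1.28 for the targets and 0.19 for the chaperones, beside 0.11 for all tested genes. With library totals in place of TMM scaling the median of all genes was -0.06, so the sign of that median depends on the scaling. At an unadjusted p under 0.05, 24 members rose and 0 fell, where 2797 of 15774 tested genes rose and 1909 fell. The 24 held 10 of 11 targets and 4 of 14 chaperones. DESeq2 called 19 members risen and 0 fallen, where it called 2023 of all genes risen and 1466 fallen. The limma-voom counts were 13 and 0, where 1127 and 935 of all genes were called. Of the 3 sensors, 2 had an unadjusted p under 0.05, and DESeq2 called 1 and limma-voom 0.

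Without Vortex replicate 2, 25 members rose against PSS and 0 fell, where 19.7% of all tested genes rose and 16.6% fell. The biological coefficient of variation of the fit was 0.184 without that library and 0.350 with it. The 25 held 10 of 11 targets, 3 of 14 chaperones, all 4 degradation genes, all 6 transcription factors and 2 of 3 sensors, and the medians were 1.47 for the targets and 0.23 for the chaperones. The 3 of 14 chaperones were again close to the share of all genes that rose. In a fit of the 6 Vortex and PSS libraries alone, whose spread is that of these groups only, Trib3 was the 1 member called, where 0.488% of all genes were called in either direction.

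Fewer members passed under HSS flow in the fit of all 9 libraries. That fit takes 1 spread per gene from the 3 groups together, so its HSS p-values carry the Vortex spread as well. With the compared libraries alone the order was the reverse, at 18 members in HSS against PSS and 1 in Vortex against PSS. Those fits called 40.8% and 0.488% of all genes. With all 9 libraries, 5 members rose against PSS (Atf5, Edem1, Trib3, Chac1 and Sesn2) and 0 fell, where 4.18% of all tested genes rose and 3.70% fell. Of the 11 targets 3 rose, with a median log2 fold change of 0.65 against 0.00 for all tested genes, and of the 14 chaperones 0 passed, with a median of -0.15. At an unadjusted p under 0.05, 0 chaperones were higher and 2 were lower in HSS, and DESeq2 called 1 chaperone lower and limma-voom 0. Over all 38 members, 2 were lower at an unadjusted p under 0.05, and DESeq2 called 2 lower and limma-voom 0. Of 15774 tested genes 1793 were lower at an unadjusted p under 0.05, and DESeq2 called 1209 lower and limma-voom 536. The chaperones lower at an unadjusted p or by DESeq2 were thus close to the share of all genes. With DESeq2-type size factors or library totals the split was 3 higher and 1 lower, the lower one being the folding enzyme Pdia4. These settings called 7.74% and 7.46% of all genes in either direction. Without Vortex replicate 2, 10 members rose and 2 fell, where 15.4% of all genes rose and 13.7% fell. The 2 that fell were the chaperones Pdia4 and Pdia6, and 2 of 14 chaperones was close to the share of all genes that fell. Each of the 5 calls ended when any 1 HSS or PSS library was left out, with adjusted p up to 0.118 for Atf5 and Chac1, 0.119 for Sesn2, 0.161 for Trib3 and 0.182 for Edem1, and those of Trib3 and Edem1 also ended without Vortex replicate 3. A fit of the 6 HSS and PSS libraries alone called 13 members higher and 5 lower. Of 15277 tested genes 3110 were higher and 3123 lower there, or 40.8% called in either direction. Members called in either direction together were close to that share, but more members were higher than lower, unlike all genes. The higher ones held 8 of 11 targets and 0 of 14 chaperones. The 5 lower ones were Atf4 and the chaperones Hsp90b1, Manf, Pdia4 and Pdia6.

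Between Vortex and HSS, 8 members were higher in Vortex (Atf4, Hyou1, Manf, Herpud1, Trib3, Asns, Mthfd2 and Slc3a2) and 0 were lower, where 4.37% of all genes were higher and 2.67% lower. They were 4 of 11 targets, 2 of 14 chaperones, 1 of 4 degradation genes, 1 of 6 transcription factors and 0 of 3 sensors. The median log2 fold change was 0.63 for the targets and 0.37 for the chaperones, beside 0.10 for all tested genes. Of the 11 targets 6 and of the 14 chaperones 6 were higher at an unadjusted p under 0.05. DESeq2 called 6 targets and 5 chaperones higher, and limma-voom 4 and 2. Over all members, 19 were higher and 0 lower at an unadjusted p under 0.05, where 2637 of 15774 tested genes were higher and 1599 lower. DESeq2 called 13 members higher and 0 lower, where it called 1706 of all genes higher and 994 lower. The limma-voom counts were 8 and 0, where 529 and 488 of all genes were called. Of the sensors 2 were higher at an unadjusted p under 0.05, and DESeq2 and limma-voom called 0. Without Vortex replicate 2, 21 were higher and 0 lower, where 13.9% of all genes were higher and 10.0% lower. The 21 held 8 of 11 targets, 5 of 14 chaperones, 1 of 4 degradation genes, 5 of 6 transcription factors and 2 of 3 sensors. The medians were then 0.72 for the targets and 0.39 for the chaperones. All 8 calls ended when any 1 HSS library was left out, with adjusted p up to 0.0817 for Atf4 and up to 0.158 for Manf and Mthfd2. In a fit of the 6 Vortex and HSS libraries alone Atf4 was the 1 member called, where 0.438% of all genes were called in either direction.

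These comparisons share libraries, and the labels do not say that the 3 libraries of a group came from separate cultures. The p-values then measure only the spread between these libraries, which may be technical. In what follows, values in CPM are given for replicates 1, 2 and 3 in that order, ± after a log2 fold change is its standard error, and p-values are those of the edgeR quasi-likelihood test, adjusted by the Benjamini-Hochberg method over every tested gene.

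**Figure D1:**
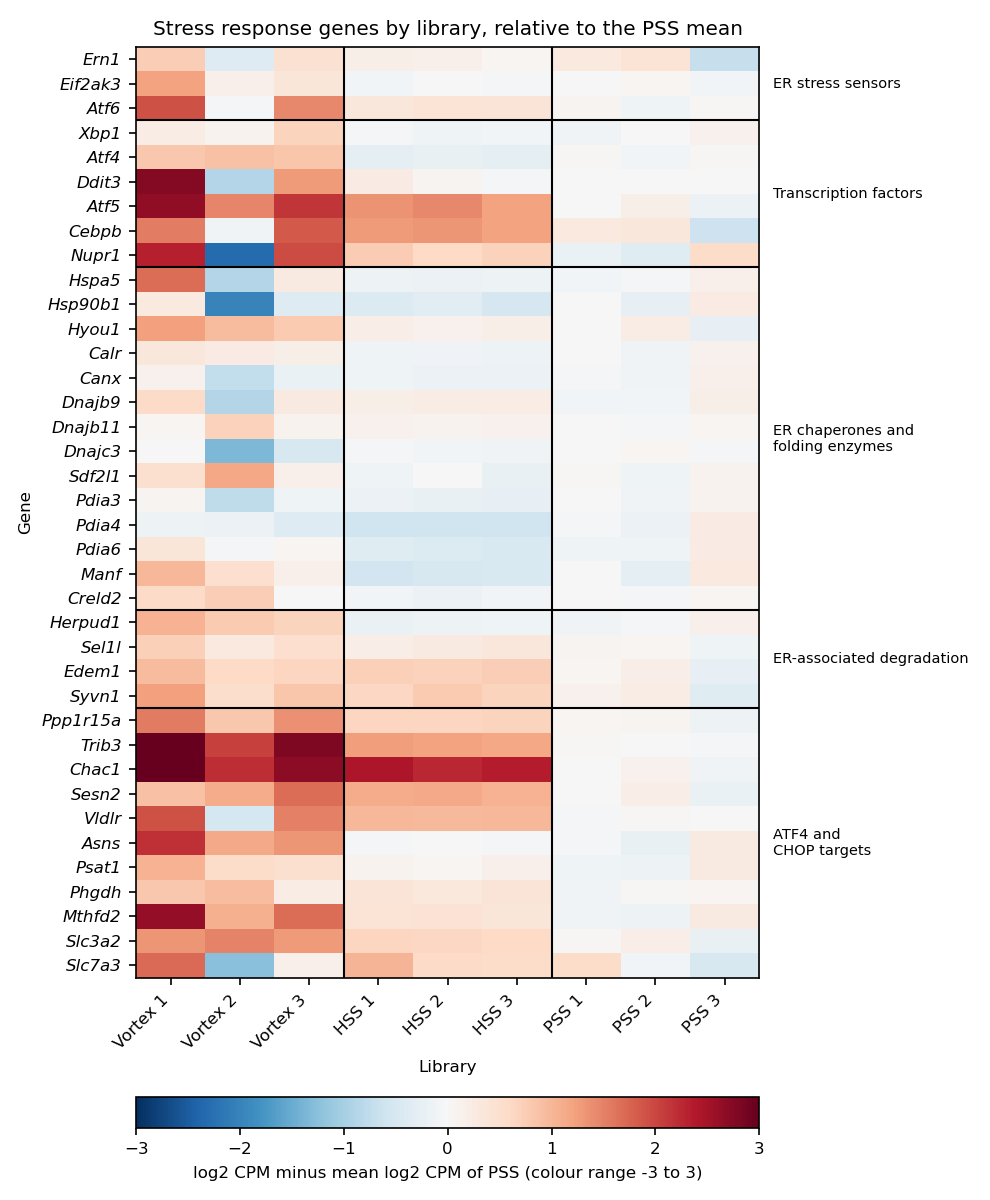
Heat map of the 38 genes (rows, grouped by role) in the 9 libraries (columns). Colour is log2 CPM minus the mean log2 CPM of the 3 PSS libraries, and values above the top of the colour scale, such as those of Trib3 and Chac1 in Vortex replicate 1, take its end colour. The block of ATF4 and CHOP targets is mostly red across Vortex, except for Vldlr and Slc7a3 in Vortex replicate 2, and paler across HSS, while the chaperone block is mostly pale, with blue and red cells in Vortex replicate 2.

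Of the sensors, none passed the test in the fit of all 9 libraries. Eif2ak3, the PERK kinase, had 77.8, 37.02 and 43.05 CPM in Vortex libraries, 31.7, 33.7 and 32.7 CPM in HSS libraries and 33.8, 35.03 and 31.6 CPM in PSS libraries. All 3 Vortex libraries lay above every HSS and PSS library, with replicate 1 well above the others. Its log2 fold change in Vortex was 0.65 ± 0.27 (adjusted p = 0.14) against PSS and 0.69 ± 0.27 (adjusted p = 0.141) against HSS, and without Vortex replicate 2 it rose by 0.85 ± 0.21 (adjusted p = 0.0112) and 0.88 ± 0.21 (adjusted p = 0.0149). Atf6, a membrane-bound factor released by cleavage, had 276, 71.5 and 198 CPM in Vortex libraries, 93.7, 96.98 and 96.3 CPM in HSS libraries and 77.95, 67.3 and 75.5 CPM in PSS libraries. Vortex replicates 1 and 3 were the highest, Vortex replicate 2 fell within the PSS range, and HSS lay above PSS without overlap. In Vortex against PSS Atf6 changed by 1.31 ± 0.40 (adjusted p = 0.0586), and without Vortex replicate 2 it rose by 1.69 ± 0.15 (adjusted p = 3.52e-05). In HSS against PSS it differed by 0.38 ± 0.39 (adjusted p = 0.628). Ern1, the IRE1 kinase and nuclease, ranged from 42.3 to 114 CPM over the 9 libraries, with log2 fold changes of 0.27 ± 0.34 in Vortex and 0.05 ± 0.34 in HSS against PSS, and passed in neither fit.

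Among the transcription factors, the gene of ATF4 itself had the closest Vortex libraries. Atf4 (ENSMUSG00000042406) had 493, 517 and 503 CPM in Vortex libraries, 231, 241 and 233 CPM in HSS libraries and 289, 269 and 292 CPM in PSS libraries. The 3 Vortex libraries lay far above the rest, and HSS lay below PSS, all without overlap. Atf4 rose in Vortex by 0.83 ± 0.14 (adjusted p = 0.00733) against PSS and by 1.10 ± 0.14 (adjusted p = 0.00825) against HSS. The call against PSS ended without PSS replicate 1, at an adjusted p of 0.0502. In HSS against PSS the difference was -0.27 ± 0.14 (adjusted p = 0.283). It passed as a fall by DESeq2, at -0.29 (adjusted p = 0.0345), with the 6 compared libraries alone, at -0.30 (adjusted p = 0.0201), and with a GC trend removed and Vortex replicate 2 left out, at -0.45 (adjusted p = 0.0102). With the GC trend removed from all 9 libraries it was -0.44 (adjusted p = 0.117). ATF4 is known to be controlled largely at translation, which these counts do not measure.

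Ddit3, which encodes CHOP, a factor linked to cell death under lasting ER stress, had 57.01, 4.48 and 20.2 CPM in Vortex libraries, 9.85, 8.86 and 8.10 CPM in HSS libraries and 8.34, 8.32 and 8.24 CPM in PSS libraries. Vortex replicate 1 was the highest and Vortex replicate 2 the lowest of all 9 libraries, while HSS and PSS overlapped in a narrow band. The change in Vortex against PSS was 1.71 ± 0.68 (adjusted p = 0.131), and without Vortex replicate 2 Ddit3 rose by 2.21 ± 0.34 (adjusted p = 0.000858). HSS and PSS differed by 0.11 ± 0.67 (adjusted p = 0.948). Xbp1, the transcript that IRE1 splices, had 80.2, 74.1 and 109 CPM in Vortex libraries, 65.9, 62.5 and 64.7 CPM in HSS libraries and 63.9, 67.5 and 74.3 CPM in PSS libraries. Vortex replicate 3 was the highest, all Vortex libraries exceeded those of HSS, and Vortex replicate 2 lay just under PSS replicate 3. Its change was 0.36 ± 0.19 (adjusted p = 0.243) in Vortex and -0.09 ± 0.19 (adjusted p = 0.831) in HSS, each against PSS. Without Vortex replicate 2 Xbp1 rose by 0.47 ± 0.15 (adjusted p = 0.0373) against PSS.

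Atf5, a relative of ATF4 whose translation is controlled in the same way, had 55.1, 23.97 and 38.2 CPM in Vortex libraries, 22.2, 23.5 and 19.9 CPM in HSS libraries and 8.54, 9.78 and 7.58 CPM in PSS libraries. The 3 groups did not overlap, with Vortex highest and PSS lowest, although Vortex replicate 2 was close to HSS. Atf5 rose by 2.18 ± 0.30 (adjusted p = 0.00454) in Vortex against PSS, a call kept without each of the 9 libraries in turn, and by 1.34 ± 0.29 (adjusted p = 0.0271) in HSS against PSS. Vortex and HSS differed by 0.84 ± 0.29 (adjusted p = 0.105), and without Vortex replicate 2 by 1.09 ± 0.19 (adjusted p = 0.00333).

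Cebpb, a C/EBP factor that pairs with CHOP and ATF4, had 138, 44.5 and 170.2 CPM in Vortex libraries, 115, 119 and 109.8 CPM in HSS libraries and 58.6, 60.1 and 30.8 CPM in PSS libraries. Vortex replicates 1 and 3 exceeded HSS, Vortex replicate 2 lay within the PSS range, and HSS exceeded PSS throughout. The changes against PSS were 1.24 ± 0.45 (adjusted p = 0.0985) in Vortex and 1.20 ± 0.45 (adjusted p = 0.141) in HSS, and without Vortex replicate 2 both passed, at 1.63 ± 0.24 (adjusted p = 0.000768) and 1.20 ± 0.22 (adjusted p = 0.00296). Nupr1, a stress-induced chromatin protein, had 257, 10.2 and 197 CPM in Vortex libraries, 85.8, 76.9 and 82.1 CPM in HSS libraries and 44.4, 39.7 and 74.3 CPM in PSS libraries. It was highest in Vortex replicates 1 and 3 and lowest of all in Vortex replicate 2, and HSS lay above PSS by a small margin. Against PSS it changed by 1.55 ± 0.82 (adjusted p = 0.243) in Vortex, where the fit without Vortex replicate 2 gave a rise of 2.10 ± 0.24 (adjusted p = 0.000169).

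**Figure D2:**
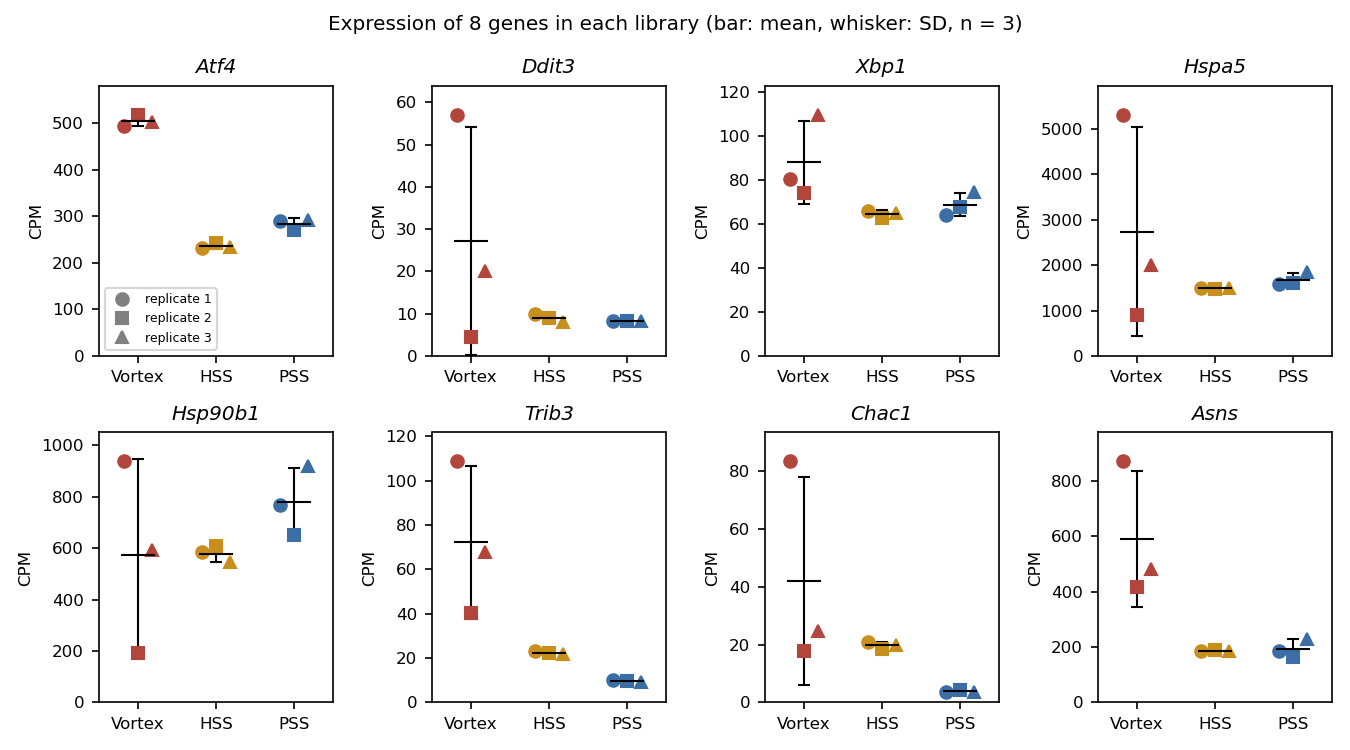
CPM (y axes from 0) of 8 genes in each library by group, with marker shape giving the replicate number, a bar at the mean and whiskers of 1 SD (n = 3). Atf4 is near 500 CPM in all 3 Vortex libraries, and Trib3 and Asns are higher in every Vortex library than in any other. For Ddit3, Hspa5 and Hsp90b1 Vortex replicate 2, the square, is the lowest of the 9 libraries.

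ER chaperones bind and fold new proteins in the ER, and their genes are the classical targets of ATF6 and XBP1. Both factors act with NF-Y at the ER stress response element (ERSE), which was searched as CCAAT, 9 bases of any kind and CCACG. A second form, ERSE-II, was searched as ATTGG, 1 base of any kind and CCACG, and the C/EBP-ATF response element (CARE) that ATF4 binds as TGATG, 1 base of any kind and AA. All were searched on both strands of RefSeq promoter windows (GRCm38.p6, 250 bases before to 50 after each start site), which matched 34 of the 38 genes. Atf6, Hyou1, Manf and Slc7a3 had no window. The motif counts thus leave out Hyou1 and Manf, the chaperones called in the fit of all 9 libraries. An ERSE match was present in 7 of 12 chaperone windows (58.3%: Hspa5, Hsp90b1, Calr, Canx, Dnajc3, Pdia6 and Creld2), in 0 of 10 target windows and in 37 of 27025 windows of all genes (0.137%). A CARE match was present in 0 of 12 chaperone windows, in 4 of 10 target windows (Trib3, Chac1, Asns and Vldlr) and in 1219 of all windows (4.51%). ERSE-II was found in Dnajb11 and Herpud1, and in 12 of all windows (0.0444%). ERSE also occurred in Syvn1, and CARE in Nupr1 and Herpud1. The stretches below show the 2 kinds of promoter side by side, each from the coding strand, written 5′ to 3′, with the matches in capitals, and CARE reads TTGCATCA where it lies on the other strand. Hspa5 (chr2:34771985-34772083, plus strand) and Hsp90b1 (chr10:86705493-86705694, minus strand, with 2 matches) are the major chaperones with ERSE, and Syvn1 (chr19:6046492-6046575, plus strand) is the degradation gene with ERSE. Herpud1 (chr8:94386277-94386427, plus strand) has CARE and then ERSE-II, and Asns (chr6:7693210-7693272, minus strand) and Chac1 (chr2:119351009-119351096, plus strand) are targets with CARE.
Hspa5: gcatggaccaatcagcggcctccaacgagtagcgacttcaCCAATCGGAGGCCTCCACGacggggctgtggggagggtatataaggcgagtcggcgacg
Hsp90b1: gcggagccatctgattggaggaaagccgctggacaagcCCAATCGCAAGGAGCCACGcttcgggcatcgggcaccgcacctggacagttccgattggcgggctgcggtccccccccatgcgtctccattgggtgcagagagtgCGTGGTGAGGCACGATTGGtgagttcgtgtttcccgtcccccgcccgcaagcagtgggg
Syvn1: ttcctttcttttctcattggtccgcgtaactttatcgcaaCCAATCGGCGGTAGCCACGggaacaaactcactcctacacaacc
Herpud1: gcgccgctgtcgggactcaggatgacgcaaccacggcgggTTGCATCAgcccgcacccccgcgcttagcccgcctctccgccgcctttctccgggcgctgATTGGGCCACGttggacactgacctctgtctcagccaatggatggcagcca
Asns: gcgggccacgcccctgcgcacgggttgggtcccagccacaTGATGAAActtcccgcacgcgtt
Chac1: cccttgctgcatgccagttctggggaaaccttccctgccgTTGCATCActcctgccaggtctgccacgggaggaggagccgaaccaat
A match is a description of these letters and not evidence of binding.

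Hspa5 and Hsp90b1, the major chaperones, did not pass the test, and their Vortex libraries lay far apart. Hspa5 (ENSMUSG00000026864), the ER chaperone BiP that holds the sensors inactive, had 5309, 900.2 and 2007 CPM in Vortex libraries, 1489.9, 1471 and 1500.4 CPM in HSS libraries and 1579, 1596 and 1839 CPM in PSS libraries. Vortex replicates 1 and 3 were the highest and Vortex replicate 2 the lowest of all libraries, and HSS lay below PSS without overlap. The log2 fold change was 0.71 ± 0.50 (adjusted p = 0.378) in Vortex and -0.17 ± 0.50 (adjusted p = 0.885) in HSS, each against PSS. Against HSS the Vortex change was 0.88 ± 0.50 (adjusted p = 0.295). Without Vortex replicate 2 Hspa5 rose in Vortex by 1.13 ± 0.30 (adjusted p = 0.0156) against PSS and by 1.30 ± 0.30 (adjusted p = 0.0133) against HSS. Without Vortex replicate 1 the difference from PSS was -0.24, so its direction against PSS rested on single libraries. Hsp90b1, the ER HSP90 GRP94, had 938, 192 and 593 CPM in Vortex libraries, 585, 607 and 546 CPM in HSS libraries and 767, 650.3 and 919 CPM in PSS libraries. Vortex replicate 1 was the highest, Vortex replicate 2 the lowest and Vortex replicate 3 within the HSS range, while HSS stayed below PSS. Its changes were -0.44 ± 0.45 (adjusted p = 0.559) in Vortex and -0.43 ± 0.45 (adjusted p = 0.634) in HSS against PSS, and -0.03 ± 0.20 (adjusted p = 0.924) in Vortex without Vortex replicate 2.

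In the fit of all 9 libraries Hyou1, an exchange factor for BiP, was the chaperone that rose in Vortex against both other groups. It had 364, 300.0 and 267 CPM in Vortex libraries, 179, 169.7 and 176 CPM in HSS libraries and 157, 179.9 and 131 CPM in PSS libraries. All 3 Vortex libraries exceeded the rest, and HSS lay within the PSS range. Hyou1 rose by 0.99 ± 0.19 (adjusted p = 0.011) against PSS and by 0.83 ± 0.19 (adjusted p = 0.0334) against HSS. The call against PSS ended without PSS replicate 1 (adjusted p = 0.0605), and that against HSS ended without PSS replicate 1 or 2 or any HSS library (adjusted p up to 0.156). It also ended with the GC trend removed (adjusted p = 0.0592). Manf, a secreted ER stress-induced factor, had 189, 136 and 106 CPM in Vortex libraries, 63.7, 68.3 and 69.2 CPM in HSS libraries and 93.6, 78.3 and 117 CPM in PSS libraries. Vortex exceeded HSS in every library, and Vortex replicate 3 fell below PSS replicate 3. Manf rose by 1.10 ± 0.24 (adjusted p = 0.0328) against HSS and changed by 0.58 ± 0.24 (adjusted p = 0.148) against PSS and, in HSS, by -0.52 ± 0.24 (adjusted p = 0.234) against PSS. The rise over HSS ended without PSS replicate 1 or 2 or any HSS library (adjusted p up to 0.158).

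The disulfide isomerases Pdia4 and Pdia6 had their lowest levels in HSS. Pdia4 had 475, 472 and 405 CPM in Vortex libraries, 352, 350.1 and 350.0 CPM in HSS libraries and 507, 472 and 630.1 CPM in PSS libraries. HSS lay in a narrow band below every other library, and Vortex and PSS overlapped. In HSS against PSS Pdia4 differed by -0.61 ± 0.17 (adjusted p = 0.054), and without Vortex replicate 2 it fell by 0.62 ± 0.13 (adjusted p = 0.00674). With library totals as the scaling it also fell, by 0.64 ± 0.15 (adjusted p = 0.0374). Pdia6 had 537, 411 and 439 CPM in Vortex libraries, 324, 317 and 304 CPM in HSS libraries and 384, 385 and 497 CPM in PSS libraries. Here too all HSS libraries lay under the others, and Vortex and PSS overlapped. The difference was -0.42 ± 0.18 (adjusted p = 0.184) in HSS against PSS and 0.56 ± 0.18 (adjusted p = 0.0864) in Vortex against HSS, and without Vortex replicate 2 both passed, as a fall of 0.43 ± 0.14 (adjusted p = 0.0408) and a rise of 0.63 ± 0.15 (adjusted p = 0.0149).

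Calr, the calcium-binding lectin chaperone calreticulin, had 1471, 1394 and 1316 CPM in Vortex libraries, 1072, 1077 and 1049 CPM in HSS libraries and 1160.3, 1083 and 1268 CPM in PSS libraries. Vortex lay above PSS and PSS above HSS in every library, by small margins. It differed by 0.39 ± 0.14 (adjusted p = 0.113) between Vortex and HSS, and without Vortex replicate 2 by 0.38 ± 0.12 (adjusted p = 0.0455). Dnajb9, a J-domain partner of BiP that also restrains IRE1, had 52.1, 18.9 and 42.1 CPM in Vortex libraries, 39.2, 40.7 and 40.6 CPM in HSS libraries and 32.99, 32.99 and 39.2 CPM in PSS libraries. Vortex replicate 2 was the lowest, and Vortex replicates 1 and 3 were the highest by a small margin. Dnajb9 changed in Vortex against PSS by 0.10 ± 0.32 (adjusted p = 0.861), and without Vortex replicate 2 it rose by 0.42 ± 0.15 (adjusted p = 0.047).

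Canx, the membrane lectin calnexin, Dnajb11 and Dnajc3, J-domain partners of BiP, Sdf2l1, a subunit of the Dnajb11 complex, the isomerase Pdia3 and Creld2 passed in no comparison with or without Vortex replicate 2. Their log2 fold changes lay between -0.50 ± 0.30 (Dnajc3) and 0.66 ± 0.26 (Sdf2l1) in Vortex against PSS and between -0.22 ± 0.21 (Pdia3) and 0.12 ± 0.20 (Dnajb11) in HSS against PSS. In Vortex against HSS they lay between -0.43 ± 0.30 (Dnajc3) and 0.78 ± 0.26 (Sdf2l1). Per length, chaperones held the highest levels of the 38 genes: in Vortex, HSS and PSS libraries Hspa5 averaged 598 ± 488, 359.5 ± 3.04 and 413 ± 24.7 FPKM (SD, n = 3 each), Calr 449.5, 379 and 425 FPKM, and Pdia3 308, 340.2 and 405 FPKM.

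ER-associated degradation passes misfolded proteins to the proteasome, and 3 of its 4 genes rose in Vortex against PSS. Herpud1, a membrane organiser of the degradation complex, had 54.6, 45.6 and 41.96 CPM in Vortex libraries, 22.96, 23.8 and 24.2 CPM in HSS libraries and 24.4, 25.6 and 29.1 CPM in PSS libraries. Vortex lay well above the rest and HSS just under PSS, all without overlap. Herpud1 rose in Vortex by 0.85 ± 0.18 (adjusted p = 0.0156) against PSS and by 1.00 ± 0.18 (adjusted p = 0.0165) against HSS. The call against PSS ended without PSS replicate 1 or 2 (adjusted p up to 0.0934) and that against HSS without any 1 HSS library (adjusted p up to 0.115). Edem1, a lectin that marks glycoproteins for disposal, had 218, 172 and 178 CPM in Vortex libraries, 187, 182 and 189 CPM in HSS libraries and 118, 130.1 and 94.97 CPM in PSS libraries. Vortex and HSS overlapped, and both lay above every PSS library. It rose by 0.73 ± 0.18 (adjusted p = 0.0304) in Vortex and by 0.70 ± 0.18 (adjusted p = 0.0467) in HSS against PSS. The Vortex call ended without any 1 of 7 libraries, which were those of PSS and HSS and Vortex replicate 1 (adjusted p up to 0.114).

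Syvn1, the ubiquitin ligase HRD1, had 108, 66.3 and 81.7 CPM in Vortex libraries, 70.3, 79.6 and 73.3 CPM in HSS libraries and 50.01, 53.8 and 35.9 CPM in PSS libraries. Again Vortex and HSS overlapped above PSS. Syvn1 rose in Vortex against PSS by 0.87 ± 0.23 (adjusted p = 0.0389), but leaving out any 1 library other than Vortex replicate 2 ended the call (adjusted p up to 0.118), and in HSS it differed by 0.68 ± 0.23 (adjusted p = 0.113). The rise in HSS passed without Vortex replicate 2, at 0.67 ± 0.17 (adjusted p = 0.0143). Sel1l, the adaptor of HRD1, had 175, 129.7 and 152 CPM in Vortex libraries, 122, 128 and 134 CPM in HSS libraries and 112, 111 and 96.8 CPM in PSS libraries. Both Vortex and HSS lay above PSS, and Vortex replicate 2 fell within HSS. The Vortex change against PSS was 0.51 ± 0.17 (adjusted p = 0.0786), and without Vortex replicate 2 it rose by 0.61 ± 0.13 (adjusted p = 0.00433).

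In the fit of all 9 libraries the largest log2 fold change of the 38 genes in each comparison belonged to a target of ATF4 and CHOP. That held against PSS without Vortex replicate 2, whereas Ddit3 had the largest value in Vortex against HSS (2.10, with Trib3 at 1.98). Trib3 (ENSMUSG00000032715), a pseudokinase that feeds back on ATF4 and AKT, had 109, 40.1 and 67.8 CPM in Vortex libraries, 22.96, 22.4 and 21.8 CPM in HSS libraries and 9.90, 9.68 and 9.33 CPM in PSS libraries. The 3 groups were fully apart, with Vortex highest and PSS lowest, and HSS and PSS were each very tight. Trib3 rose by 2.90 ± 0.33 (adjusted p = 0.00283) in Vortex and by 1.22 ± 0.32 (adjusted p = 0.049) in HSS against PSS, and by 1.69 ± 0.32 (adjusted p = 0.0199) in Vortex against HSS. The Vortex rise over PSS passed without each of the 9 libraries, and the rise over HSS ended without PSS replicate 1 or any HSS library (adjusted p up to 0.115). Chac1, which breaks down glutathione, had 83.3, 17.9 and 24.7 CPM in Vortex libraries, 20.8, 18.6 and 19.8 CPM in HSS libraries and 3.74, 4.14 and 3.51 CPM in PSS libraries. PSS lay far below, and Vortex replicates 2 and 3 lay close to HSS, with Vortex replicate 1 standing well above both. Chac1 rose by 3.46 ± 0.54 (adjusted p = 0.00622) in Vortex and by 2.38 ± 0.52 (adjusted p = 0.0272) in HSS against PSS. Without Vortex replicate 1 the rise over PSS was 2.45, and the difference from HSS was 0.10 where all 9 libraries gave 1.09 ± 0.49 (adjusted p = 0.196).

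Ppp1r15a, or GADD34, directs the phosphatase that reverses eIF2 alpha phosphorylation, and had 266, 159 and 236 CPM in Vortex libraries, 142, 142 and 143 CPM in HSS libraries and 94.02, 96.3 and 82.1 CPM in PSS libraries. No groups overlapped, with Vortex highest and PSS lowest. It rose by 1.28 ± 0.21 (adjusted p = 0.00703) in Vortex against PSS, which passed without each of the 9 libraries, and differed by 0.65 ± 0.21 (adjusted p = 0.0938) in HSS. The HSS rise of 0.65 ± 0.11 (adjusted p = 0.00177) passed as well without Vortex replicate 2. Sesn2, a leucine sensor that restrains mTORC1, had 26.7, 31.8 and 46.6 CPM in Vortex libraries, 31.7, 32.3 and 30.2 CPM in HSS libraries and 14.5, 16.9 and 12.6 CPM in PSS libraries. Vortex and HSS overlapped, both above PSS. Sesn2 rose by 1.25 ± 0.24 (adjusted p = 0.0112) in Vortex and 1.09 ± 0.24 (adjusted p = 0.0254) in HSS against PSS, and the Vortex call ended without PSS replicate 1 (adjusted p = 0.0627). Vldlr, a lipoprotein receptor, had 319, 58.9 and 242 CPM in Vortex libraries, 169.7, 168 and 171 CPM in HSS libraries and 83.1, 87.9 and 85.3 CPM in PSS libraries. Vortex replicates 1 and 3 were the highest, Vortex replicate 2 the lowest, and HSS lay above PSS throughout. The changes against PSS were 1.27 ± 0.48 (adjusted p = 0.109) in Vortex and 0.99 ± 0.47 (adjusted p = 0.25) in HSS, and without Vortex replicate 2 both passed, at 1.71 ± 0.13 (adjusted p = 1.55e-05) and 0.99 ± 0.12 (adjusted p = 0.000242).

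Asns and Mthfd2 rose in Vortex against both other groups, and did not pass between HSS and PSS. Asns, asparagine synthetase, had 871, 418 and 482 CPM in Vortex libraries, 186, 189 and 186 CPM in HSS libraries and 186, 164 and 231 CPM in PSS libraries. Every Vortex library exceeded the rest, and HSS fell within the PSS range. Asns rose in Vortex by 1.61 ± 0.28 (adjusted p = 0.00885) against PSS and 1.66 ± 0.28 (adjusted p = 0.0156) against HSS, and HSS differed from PSS by -0.05 ± 0.27 (adjusted p = 0.943). The call against PSS ended without PSS replicate 1 (adjusted p = 0.052), and that against HSS without any 1 HSS library (adjusted p up to 0.098). Mthfd2, a mitochondrial folate enzyme, had 374, 127 and 194 CPM in Vortex libraries, 80.3, 82.2 and 77.9 CPM in HSS libraries and 56.3, 53.9 and 72.4 CPM in PSS libraries. The groups did not overlap, with Vortex well above HSS and HSS a little above PSS. Mthfd2 rose in Vortex by 1.93 ± 0.36 (adjusted p = 0.0106) against PSS and 1.53 ± 0.35 (adjusted p = 0.0361) against HSS, and in HSS differed by 0.40 ± 0.35 (adjusted p = 0.557). Without PSS replicate 1 or 2 the call against PSS ended (adjusted p up to 0.0597), and that against HSS ended without any 1 of 7 libraries, which were those of PSS and HSS and Vortex replicate 3 (adjusted p up to 0.158).

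Psat1, of serine synthesis, had 503, 354 and 339 CPM in Vortex libraries, 261, 252 and 270.4 CPM in HSS libraries and 222, 219 and 293 CPM in PSS libraries. Vortex lay above all others, and HSS within PSS. It changed by 0.71 ± 0.20 (adjusted p = 0.0511) in Vortex against PSS, and without Vortex replicate 2 it rose by 0.78 ± 0.19 (adjusted p = 0.00899). Phgdh, the first enzyme of that pathway, had 244, 264 and 164 CPM in Vortex libraries, 182, 175 and 182 CPM in HSS libraries and 130.1, 144 and 145 CPM in PSS libraries. Vortex and HSS lay above every PSS library and overlapped each other. Its change in Vortex against PSS was 0.68 ± 0.20 (adjusted p = 0.0524), and without Vortex replicate 2 it rose by 0.54 ± 0.16 (adjusted p = 0.0245).

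Slc3a2, the heavy chain of several amino acid exchangers, had 501, 560.3 and 484 CPM in Vortex libraries, 311, 305 and 302 CPM in HSS libraries and 204, 227 and 169 CPM in PSS libraries. The 3 groups were apart, in the order Vortex, HSS and PSS. Slc3a2 rose in Vortex by 1.36 ± 0.17 (adjusted p = 0.00319) against PSS, which passed without each of the 9 libraries, and by 0.75 ± 0.16 (adjusted p = 0.0309) against HSS, which ended without PSS replicate 1 or any HSS library (adjusted p up to 0.157). In HSS against PSS it differed by 0.61 ± 0.16 (adjusted p = 0.054) and, without Vortex replicate 2, rose by 0.61 ± 0.13 (adjusted p = 0.00505). Slc7a3, a carrier of cationic amino acids, had 6 to 46 counts in a library, or 0.286 to 2.90 CPM, and did not pass in either fit.

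**Figure D3:**
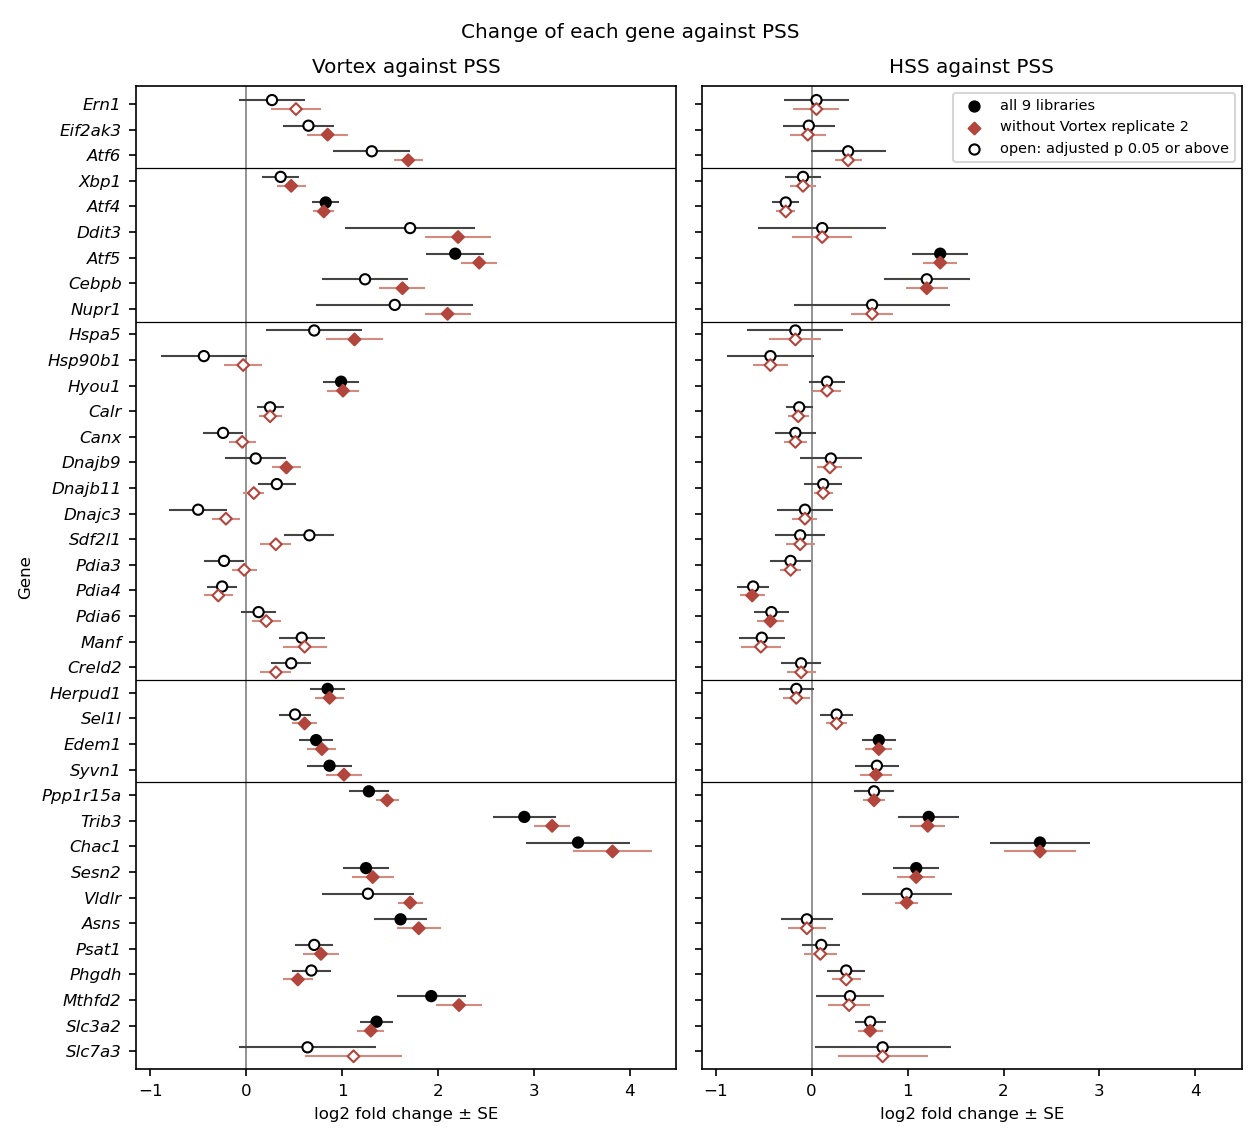
Log2 fold change (x axes) of each gene (rows, grouped by role) in Vortex against PSS, left, and in HSS against PSS, right, with whiskers of 1 SE. Black circles are from all 9 libraries and red diamonds from the fit without Vortex replicate 2, and filled symbols have an adjusted p under 0.05. Trib3 and Chac1 lie farthest right in Vortex, at 2.90 and 3.46. In the fit of all 9 libraries the chaperones lie on both sides of 0, between -0.50 and 0.99 in Vortex and between -0.61 and 0.20 in HSS.

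Set side by side, the targets had a higher median than the chaperones in every Vortex and HSS library. The median log2 CPM of the 11 targets relative to the PSS mean was 1.69, 1.07 and 1.38 in Vortex libraries, 0.65, 0.62 and 0.60 in HSS libraries and -0.02, 0.04 and -0.05 in PSS libraries. For the 14 chaperones it was 0.35, -0.10 and 0.08 in Vortex libraries, -0.13, -0.18 and -0.17 in HSS libraries and -0.01, -0.10 and 0.13 in PSS libraries. Target medians of the 3 groups did not overlap. Of the chaperone medians, that of Vortex replicate 3 lay inside the PSS range and that of Vortex replicate 2 at its lower end. All 3 HSS chaperone medians lay below those of every PSS and Vortex library. The targets have a higher median GC content (53.4%) than the chaperones (48.2%) and all tested genes (49.4%). With a smooth GC trend removed from each library, 7 of 11 targets and 2 of 14 chaperones rose in Vortex against PSS, with medians of 1.10 and 0.16. Of 15774 tested genes 950 rose and 535 fell, and 9.41% were called in either direction. Under that setting the calls of Atf4 (adjusted p = 0.0933), Herpud1 (0.0825), Syvn1 (0.266), Ppp1r15a (0.0594) and Sesn2 (0.067) ended, while the sensor Atf6 (0.0275), Dnajb9 (0.0389), Sel1l (0.0334), Vldlr (0.0358) and Psat1 (0.0432) passed as risen. In HSS against PSS the calls of Atf5 (0.101), Trib3 (0.167), Chac1 (0.057) and Sesn2 (0.0622) ended, and Slc3a2 rose (0.0489) and Pdia4 fell (0.0491), with Edem1 the 1 call kept. That made 2 members risen and 1 fallen, where 726 of 15774 tested genes rose and 744 fell. With Vortex replicate 2 left out as well, Atf4, Herpud1, Syvn1, Ppp1r15a and Sesn2 all passed in Vortex against PSS.

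**Figure D4:**
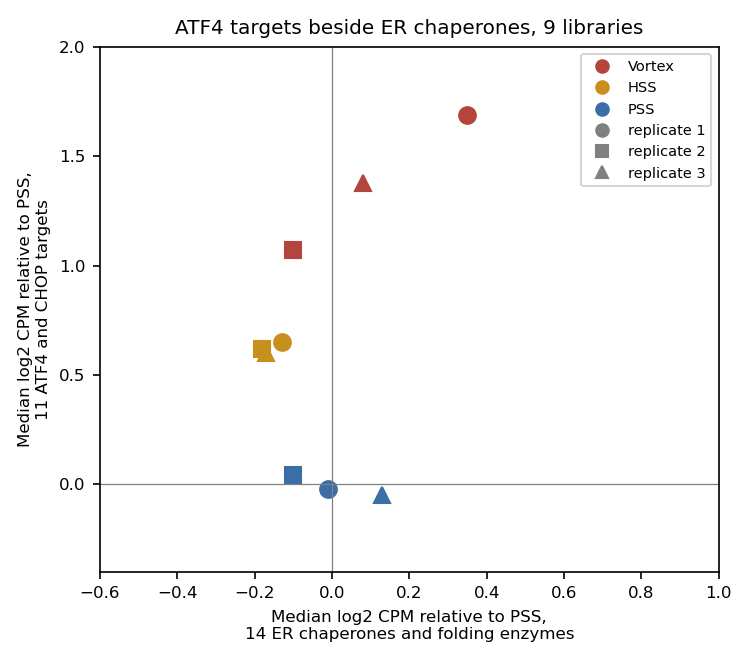
Each point is 1 library, with the median log2 CPM relative to the PSS mean of the 14 chaperones on the x axis and of the 11 targets on the y axis. Colour gives the group and shape the replicate number. Vortex points lie between 1.07 and 1.69 on the y axis and HSS points between 0.60 and 0.65, while on the x axis 8 of 9 points fall between -0.18 and 0.13.

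Single libraries held many of the extremes. Vortex replicate 1 had the highest CPM of 25 of the 38 genes and the lowest of 0, whereas Vortex replicate 2 had the highest of 6 and the lowest of 10. PSS replicate 3 had the lowest of 13 and the highest of 3. The same counts were not made over all tested genes, so whether they are particular to these members was not tested.

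Other genes of the pathway were counted from lists of the amino acid arm and the ER arm. Of 29 genes for tRNA charging, amino acid transport and synthesis, 19 rose in Vortex against PSS, with a median log2 fold change of 1.04, while 2 rose in HSS against PSS and 11 were higher in Vortex than in HSS. Of all tested genes 8.33%, 4.18% and 4.37% were higher in these comparisons. Leaving out Vortex replicate 2 gave 23, 7 and 18 genes of the list, beside 19.7%, 15.4% and 13.9% of all genes. The 3 with the smallest p in Vortex against PSS were Aars1 and Yars1, which charge tRNA with alanine and tyrosine, and Got1, an aspartate aminotransferase. Aars1 averaged 431 ± 82.5 CPM in Vortex and 189 ± 16.5 CPM in PSS (SD, n = 3 each), a log2 difference of 1.19 ± 0.18 (adjusted p = 0.00527). Yars1 averaged 203 ± 21.5 CPM in Vortex and 98.7 ± 5.19 CPM in PSS (SD, n = 3 each), with 1.04 ± 0.16 (adjusted p = 0.00563). Got1 averaged 238 ± 16.8 CPM in Vortex and 115 ± 14.7 CPM in PSS (SD, n = 3 each), with 1.05 ± 0.17 (adjusted p = 0.00622). In HSS against PSS the 2 called were the cystine carrier Slc7a11, at 447 ± 6.34 CPM in HSS and 58.7 ± 24.7 CPM in PSS (SD, n = 3 each) and 2.93 ± 0.51 (adjusted p = 0.0114) on the log2 scale, and the mitochondrial folate enzyme Aldh1l2, at 36.3 ± 0.866 CPM in HSS and 4.81 ± 0.802 CPM in PSS (SD, n = 3 each) and 2.91 ± 0.52 (adjusted p = 0.0121). The large neutral carrier Slc7a5 came next and did not pass, at 0.68 ± 0.20 (adjusted p = 0.0791). Against HSS the smallest p in Vortex belonged to Aldh18a1 and Pycr1, of proline synthesis, and Got1, at 1.31 ± 0.18 (adjusted p = 0.00888), 1.41 ± 0.23 (adjusted p = 0.0138) and 1.18 ± 0.17 (adjusted p = 0.00976).

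Of 16 other targets of ATF4 or CHOP, 14 were tested: 6 rose in Vortex against PSS, 2 rose in HSS against PSS and 4 were higher in Vortex than in HSS, where 8.33%, 4.18% and 4.37% of all genes were higher. The list had 9, 6 and 9 higher without Vortex replicate 2 and, in HSS against PSS, 1 lower, where 19.7%, 15.4% and 13.9% of all genes were higher and 13.7% were lower in HSS. Jdp2, an AP-1 repressor, rose by 1.81 ± 0.19 (adjusted p = 0.00224) in Vortex and 0.90 ± 0.19 (adjusted p = 0.0204) in HSS against PSS, and by 0.90 ± 0.18 (adjusted p = 0.0254) in Vortex against HSS. Eif4ebp1, an inhibitor of cap-dependent translation, rose in Vortex by 1.52 ± 0.20 (adjusted p = 0.00404) against PSS and 1.43 ± 0.20 (adjusted p = 0.00967) against HSS. Tnfrsf10b, the TRAIL receptor DR5, rose by 1.07 ± 0.17 (adjusted p = 0.00614) in Vortex and 0.90 ± 0.17 (adjusted p = 0.0137) in HSS against PSS. The autophagy gene Map1lc3b was higher in Vortex than in HSS by 0.97 ± 0.23 (adjusted p = 0.0373) and differed by -0.72 ± 0.23 (adjusted p = 0.0894) in HSS against PSS.

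Of 28 other ER folding and translocation genes, 6 rose and 1 fell in Vortex against PSS, 0 rose and 1 fell in HSS against PSS, and 4 were higher in Vortex than in HSS. The shares of all genes were 8.33% risen and 5.03% fallen, 4.18% risen and 3.70% fallen, and 4.37% higher. Between HSS and PSS 1 was higher in HSS at an unadjusted p under 0.05, and DESeq2 called 1 higher and limma-voom 0. Of 15774 tested genes 1900 were higher there at an unadjusted p under 0.05, and DESeq2 called 1247 higher and limma-voom 598. Leaving out Vortex replicate 2 gave 8 risen and 3 fallen in Vortex against PSS, 2 risen and 5 fallen in HSS against PSS, and 13 higher in Vortex than in HSS. All genes then had 19.7% risen and 16.6% fallen, 15.4% risen and 13.7% fallen, and 13.9% higher. Pdia5, a disulfide isomerase, rose in Vortex by 0.85 ± 0.16 (adjusted p = 0.0106) against PSS and 1.20 ± 0.16 (adjusted p = 0.00888) against HSS. Sil1, an exchange factor for BiP, rose by 1.14 ± 0.23 (adjusted p = 0.0139) and 1.33 ± 0.23 (adjusted p = 0.0159), and Cdk5rap3, of the UFM1 ligase at the ER, by 0.93 ± 0.18 (adjusted p = 0.0118) and 0.94 ± 0.18 (adjusted p = 0.0209), in the same comparisons. The prolyl isomerase Fkbp14 fell in HSS, averaging 27.4 ± 1.55 CPM in HSS and 79.2 ± 14.7 CPM in PSS (SD, n = 3 each), with -1.53 ± 0.19 (adjusted p = 0.00311) on the log2 scale. The glycoprotein folding sensor Uggt1 and the translocon-associated Ssr2 had 0.53 ± 0.15 (adjusted p = 0.0616) and -0.50 ± 0.18 (adjusted p = 0.125) there.

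Of 21 other degradation genes, 20 were tested: 6 rose in Vortex against PSS, 0 in HSS against PSS and 2 were higher in Vortex than in HSS, beside 8.33%, 4.18% and 4.37% of all genes. Between HSS and PSS 2 of them were higher in HSS at an unadjusted p under 0.05, and DESeq2 and limma-voom called 0. Over all 15774 tested genes 1900 were higher in HSS at an unadjusted p under 0.05, and DESeq2 called 1247 and limma-voom 598. Leaving out Vortex replicate 2 gave 9 risen and 2 fallen, 3 risen, and 7 higher and 1 lower in these comparisons, beside 19.7% and 16.6%, 15.4%, and 13.9% and 10.0% of all genes. The 3 of 20 in HSS were thus close to the share of all genes. The channel gene Derl1 rose by 0.77 ± 0.15 (adjusted p = 0.012) in Vortex against PSS and the lectin Os9 by 0.91 ± 0.17 (adjusted p = 0.0101). Derl1 had 0.24 ± 0.15 (adjusted p = 0.391) and Os9 0.39 ± 0.16 (adjusted p = 0.192) in HSS against PSS. Edem2 and Aup1 were higher in Vortex than in HSS, by 0.84 ± 0.19 (adjusted p = 0.0321) and 0.95 ± 0.22 (adjusted p = 0.0381), and Derl1 had 0.53 ± 0.15 (adjusted p = 0.0615). Of 20 other sensors and regulators, 4 rose in Vortex against PSS, 1 rose in HSS against PSS and 1 was higher in Vortex than in HSS, where the shares of all genes were again 8.33%, 4.18% and 4.37%. Both single calls were close to those shares. Leaving out Vortex replicate 2 gave 10 risen and 3 fallen, 5 risen and 2 fallen, and 3 higher and 3 lower, where all genes had 19.7% and 16.6%, 15.4% and 13.7%, and 13.9% and 10.0%. Traf2, an adaptor bound by active IRE1, rose by 1.49 ± 0.16 (adjusted p = 0.00224) in Vortex and 0.94 ± 0.16 (adjusted p = 0.00924) in HSS against PSS. Wfs1, an ER membrane protein, rose in Vortex by 0.85 ± 0.22 (adjusted p = 0.0329) and Atf6b, the second ATF6, by 0.82 ± 0.22 (adjusted p = 0.0384), while in HSS they had 0.64 ± 0.22 (adjusted p = 0.109) and 0.65 ± 0.22 (adjusted p = 0.105). Nfya, a subunit of NF-Y, was higher in Vortex than in HSS by 0.85 ± 0.16 (adjusted p = 0.0183), where Traf2 had 0.56 ± 0.16 (adjusted p = 0.0618) and the eIF2 alpha kinase Eif2ak2 -1.54 ± 0.46 (adjusted p = 0.0729). The lists were drawn up with earlier results of these data known and are given as counts.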

How the data were processed

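Polyadenylated RNA of bEnd.3 cells was sequenced in 9 libraries, 3 per flow condition. TRIzol extraction and a NEBNext Ultra library kit were used, per the labels' protocols, which call the RNA that was sequenced mixed. HISAT2, HTSeq 0.13.5 and the build GRCm39 are listed in the submitters' processing notes. A strand setting was not given in the sources used here, so reads of overlapping antisense genes cannot be told apart. The authors deposited whole-number, unnormalized counts per gene. Beside them stand FPKM values from the authors, scaled to gene length and library total: in 100% of 31232 genes counts, FPKM and totals gave 1 whole-number length (relative tolerance 1e-06).

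Counts were fitted in R 4.3.3 with edgeR 4.0.16 (filterByExpr, TMM scaling, robust quasi-likelihood F test, 1 mean per group over all 9 libraries). Calls are Benjamini-Hochberg adjusted p under 0.05 over 15774 genes. CPM uses TMM-scaled totals. Each standard error is the log2 fold change over root F. An exact permutation test of 3 libraries against 3 cannot go below p = 0.1, so single-gene tests rest on the variance model shared across genes. Counting precision is limited by 17407217 to 22965802 counts per library. The procedure was tested on simulated data.

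The members and lists were chosen with earlier results of these data known. Values in every library are given for members called in a comparison with or without Vortex replicate 2 and for 8 fixed genes, and each other list names the 3 genes of smallest p per comparison, of which 1 is not reported here. Promoter windows are from RefSeq (GRCm38.p6), and GC content, for 98.5% of tested genes, from GENCODE M21. No coordinates of the files' build are given. Alternatives were other scalings, filters, a replicate block, DESeq2 1.42.0, limma 3.58.1 (voom, and log2 FPKM with pseudocounts of 1 and 0.1), the compared libraries alone, each library left out, a GC trend removed (lowess span 0.3), and a minimum log2 change of 1.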

Additional observations from a re-analysis of the deposited data

How the results depend on the processing

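Over all alternatives no log2 fold change of a member called in the fit of all 9 libraries reversed its sign. This did not hold for every member called only under an alternative. Hspa5 in Vortex against PSS had 1.13 without Vortex replicate 2 and -0.24 without Vortex replicate 1. Dnajb9 in that comparison had 0.42 without Vortex replicate 2 and went down to -0.24 with another library left out. For HSS against PSS, where 5 members passed, the count was 9 by DESeq2, 3 with the GC trend removed, 15 with the GC trend removed and Vortex replicate 2 left out, 18 with the 6 compared libraries alone, and 0 to 12 when 1 library at a time was left out. The share of all genes called moved with it: 7.87% in the stated fit, then 15.6%, 9.32%, 29.8%, 40.8%, and 1.74% to 29.1%. For Vortex against PSS, where 13 passed, it was 8 at an absolute log2 fold change of at least 1, 23 with the GC trend removed and Vortex replicate 2 left out, 1 with the compared libraries alone, and 5 to 25 with 1 library left out. Of all genes 13.4% were called in the stated fit, 37.5% with the GC trend removed and Vortex replicate 2 left out, 0.488% with the compared libraries alone, and 3.18% to 36.3% with 1 library left out. For Vortex against HSS, where 8 passed, it was 13 by DESeq2, 5 by limma on log2 FPKM with either pseudocount, 20 with the GC trend removed and Vortex replicate 2 left out, 1 with the compared libraries alone, and 0 to 21 with 1 library left out. Of all genes 7.04% were called in the stated fit, then 17.1%, 7.52% and 6.83%, 26.3%, 0.438%, and 0.154% to 23.9%. The cause of these differences was not tested. Other scalings and filters and limma-voom stayed within 1.5 times the stated counts.

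The replicate number as a block gave 1 member in HSS against PSS, 11 in Vortex against PSS and 3 in Vortex against HSS, where 4.89%, 7.98% and 2.26% of all genes were called. Deviations of same-numbered libraries from their group means correlated at -0.123 to 0.118, so the numbers were not taken as pairs. Vortex values without Vortex replicate 2 rest on 2 Vortex libraries.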
